A study of Homo sapiens with 16 samples.

Results

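Translation initiation factors are the proteins that load a ribosome onto an mRNA and place it on the start codon. Their genes were taken as every gene symbol made of EIF, a digit from 1 to 6 and further capital letters or digits, without pseudogene names ending in P or in P and a number, and without the 4 kinases EIF2AK1 to EIF2AK4. Of 128 names that matched, 75 were left out as pseudogene names and 4 as kinases, which left 49 genes among the 57500 genes of the files. All groups were made from HEK293T, a human line from embryonic kidney that expresses large T antigen of SV40, and all carried a lentivector, for histone H2A in 12 libraries and for H2A(E92K) in 4. In H2A(E92K) a glutamate of the nucleosome's acidic patch, where many chromatin proteins dock, is replaced by lysine. The 4 groups held 4 libraries each: H2A cells with DMSO, H2A(E92K) cells with DMSO, H2A cells with 1 µM JQ1 for 3 h, and H2A cells with 2.5 µM pinometostat for 24 h. JQ1 displaces BET bromodomain proteins from acetylated histones, and pinometostat inhibits DOT1L, the methyltransferase of histone H3 lysine 79. The sources used here do not give the promoter of the lentivector, the clonality of the lines or the length of the DMSO exposure. The same DMSO libraries served as the control at both times.

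Initiation begins when eIF2 carries the initiator tRNA, in its GTP-bound form, to the small ribosomal subunit together with eIF1, eIF1A, eIF5 and the many-subunit scaffold eIF3. The eIF4F complex, made of the cap-binding protein eIF4E, the scaffold eIF4G and the helicase eIF4A, brings this assembly to the capped end of the mRNA, and eIF5B joins the large subunit once the start codon is found. eIF2B recharges eIF2 with GTP, and phosphorylation of eIF2 by stress kinases blocks that step, while proteins of the EIF4EBP family hold eIF4E back unless mTORC1 is active. Dividing cells in culture are known to make these factors in quantity.

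Total RNA was sequenced, and counts per gene ran from 17779692 to 27599686 per library. All genes of the mitochondrial genome (names starting with MT-), not its mRNAs alone, took 3.66% to 4.02% of counts in the DMSO libraries of H2A cells. With pinometostat they took 4.43% to 5.04%. JQ1 replicate 1 stood apart with 16.5%, and H2A(E92K) replicate 4 with 7.45%. The initiation factor genes together took 1.03% to 1.3% of the counts of every library. PAX2, LHX1 and EYA1, genes of the embryonic kidney, and NEFL and NEFM, neurofilament genes known in this line, reached a mean of 1 CPM (counts scaled to a common library size, defined below) in every group. HBB, the marker of red blood cells, was at 0 in every library, and none of 3 endothelial markers reached that level. All 5 fibroblast genes reached it, with a summed level of 231 to 297 CPM in H2A cells with DMSO, 260 to 481 with JQ1, 160 to 270 with pinometostat and 191 to 283 in H2A(E92K) cells. Their part in the results below was not tested.

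Of the 49 genes, 47 passed the filter on low counts and were tested; EIF1AY and EIF4E1B did not. By role, the 49 comprised 7 genes of start codon selection and subunit joining, 6 of initiator tRNA delivery, 5 of eIF2B, 14 of eIF3, 13 of the eIF4 group and 4 of eIF5A and eIF6. Levels between genes were compared in TPM, the authors' unit in which counts are divided by gene length and scaled to a fixed sum, over the 4 DMSO libraries of H2A cells. EIF5A was highest, at 1600 ± 63.3 TPM (SD, n = 4); its protein, which carries the modified lysine hypusine, helps ribosomes through sequences that stall. EIF3I, a small eIF3 subunit built of WD repeats, followed at 940 ± 79.1 TPM. EIF1, which guards start codon choice, and EIF2S3, the gamma subunit of eIF2, came next at 567 ± 45.3 and 563 ± 48.6 TPM and did not differ beyond their SD, and neither did EIF4B at 479 ± 45.6 and EIF4H at 443 ± 68.9 TPM, cofactors of the eIF4A helicase.

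**Figure D1:**
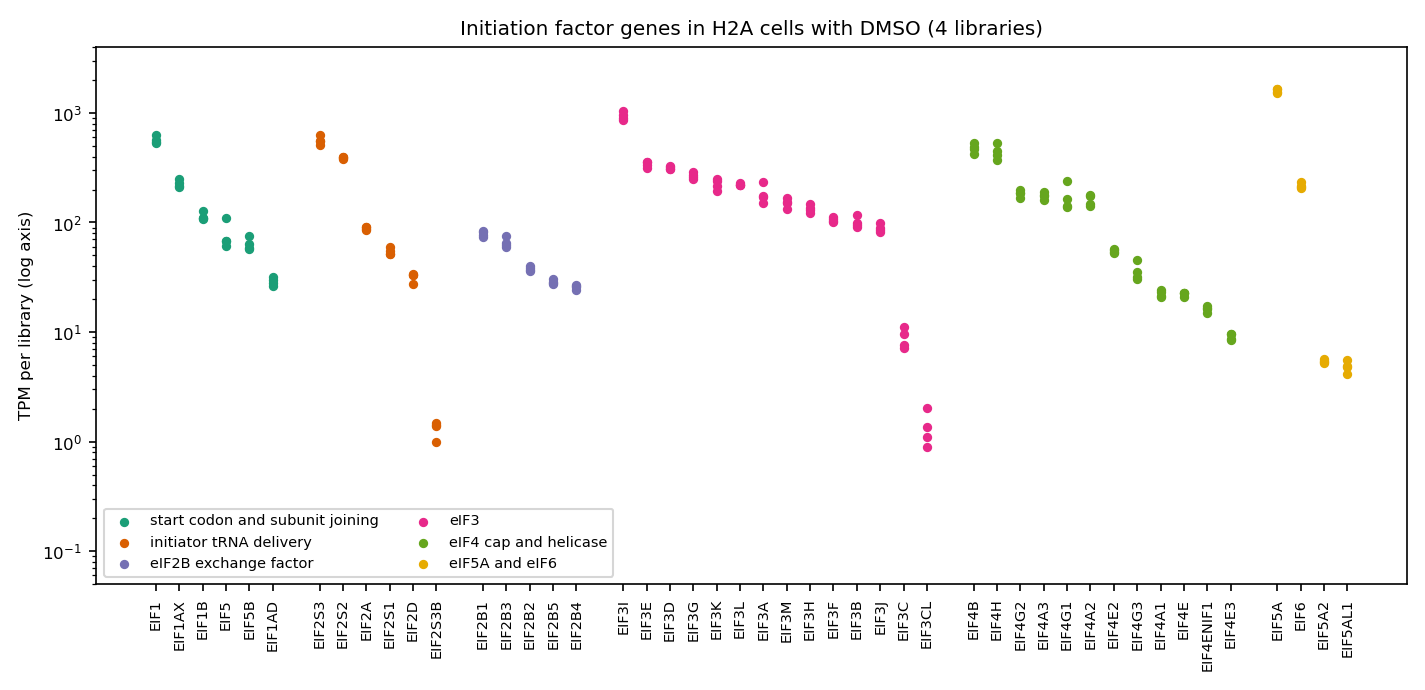
TPM (log axis) of the 47 tested initiation factor genes in the 4 DMSO libraries of H2A cells, 1 point per library, grouped by role and ordered by mean within a role. EIF5A and EIF3I lie highest, at means of 1600 and 940 TPM, and the near-copies EIF3CL and EIF2S3B lie lowest among the tested genes, at 1.35 and 1.33.

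Subunits of one complex did not share one mRNA level. The eIF2 subunits EIF2S1, EIF2S2 and EIF2S3 stood at 54.6 ± 3.67, 392 ± 9.09 and 563 ± 48.6 TPM, so the alpha subunit, which the stress kinases phosphorylate, had the lowest level of them. The eIF2B subunits ran from 25.8 ± 1.27 TPM (EIF2B4) to 79.3 ± 4.59 TPM (EIF2B1). Within eIF4F, EIF4G1 stood at 170 ± 47.3 TPM and EIF4A2 at 161 ± 19.3 TPM, against 22.3 ± 0.793 TPM for EIF4E and 22.3 ± 1.51 TPM for EIF4A1. The low EIF4A1 value is uncertain, because 48.6% of its exonic bases also belong to other genes on its strand, among them the readthrough gene SENP3-EIF4A1, and the sources used here do not say how reads in shared bases were counted. In the same way EIF3C at 8.91 ± 1.84 TPM and its near-identical copy EIF3CL at 1.35 ± 0.498 TPM may have lost reads that fit both genes, and EIF3L shares 51.8% of its exonic bases with genes on either strand and 41.1% with genes on its own.

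Of the features that the choice of genes did not use, the sequence at the transcript start is one that bears on translation. mRNAs with a 5′ terminal oligopyrimidine (TOP) tract start with a C followed by a run of pyrimidines, and their translation is controlled by mTORC1 and LARP1; ribosomal protein mRNAs are the known example. RefSeq windows (GRCh38.p14) of 250 bases before and 50 bases after an annotated start were matched by symbol for 42 of the 49 genes. The 7 without a window were EIF2S2, EIF3A, EIF3CL, EIF3E, EIF3G, EIF3H and EIF3L, so nothing is known here about their starts. A start with C and at least 4 further pyrimidines (C or T) on the transcribed strand, taken at any annotated start of a gene, was present in 10 of the 42 (23.8%), against 1404 of 27305 genes with a window (5.14%). The 27305 genes were not limited to those that passed the filter on low counts, and the share among those was not computed. The annotated starts were not measured in these libraries, and a match is a description of letters only. The 10 are shown because they hold eIF2, eIF3 and eIF4 genes together; each line gives 10 bases before the start and 15 from it, with the run of pyrimidines from the start in capitals.
EIF3D (chr22:36529152-36529176, minus strand): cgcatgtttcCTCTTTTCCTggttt
EIF3F (chr11:7987327-7987351, plus strand): cttccgcctcCTTCTTTCTCgacaa
EIF3K (chr19:38619178-38619202, plus strand): tttccaccacCTCTTCCTgttcccg
EIF3M (chr11:32583821-32583845, plus strand): gcccagttccCTTTTCCggtcggcg
EIF2A (chr3:150546777-150546801, plus strand): cgagcggtttCTCTTTCCgggacaa
EIF2D (chr1:206612451-206612475, minus strand): ccagccgggcCCTTTTCgcggccgg
EIF2S3 (chrX:24054946-24054970, plus strand): gatttccttcCTCTTTTggcaacat
EIF2S3B (chr12:10505880-10505904, plus strand): gactttcttcCTCTTTTggcaacat
EIF4A2 (chr3:186783567-186783591, plus strand): gcgccgctgtCTTTTCagtcgggcg
EIF4B (chr12:53006446-53006470, plus strand): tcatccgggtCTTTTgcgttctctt

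The runs were longest in EIF3D and EIF3F, at 10 bases, and shortest in EIF4B, at 5. EIF2S3B is a near-copy of EIF2S3, and they carry the same run. Starts of EIF3B and EIF4G1, 2 genes that fell with pinometostat, are shown for comparison and have no such run; EIF4G1 has further annotated starts.
EIF3B (chr7:2354817-2354841, plus strand): tcgcacgcacatggctgggctgtag
EIF4G1 (chr3:184314596-184314620, plus strand): gcggggagccggaaatggttgtgga

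The palindrome CACGTG, the E-box that MYC and related factors bind, was searched in the same windows, where it reads alike on both strands. It was present in 10 of the 42 genes (23.8%), against 2396 of 27305 (8.77%), again without a limit to genes that passed the filter. EIF4E and EIF4G1, 2 members of eIF4F, each held it at 2 positions, and 1 of each is shown with the E-box in capitals. For the other genes, the absence of a match says only that these letters are not in the window.
EIF4E (chr4:98929188-98929217, minus strand): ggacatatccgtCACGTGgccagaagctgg
EIF4G1 (chr3:184314527-184314556, plus strand): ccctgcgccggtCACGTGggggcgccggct

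Library by library, levels of a gene were compared in CPM, the counts relative to the library's total after TMM scaling, and changes were tested with edgeR's quasi-likelihood model over all 16 libraries, with Benjamini-Hochberg adjustment over 17306 genes and a threshold of 0.05. JQ1 replicate 1 was the highest or the lowest of the 16 libraries in 27 of the 47 genes, 13 times highest and 14 times lowest; over all tested genes the share was 51.1%. It lay outside the range of the other JQ1 libraries in 42 of 47 genes, and H2A(E92K) replicate 4 lay outside its own group in 34 of 47, against 84.1% and 69.2% of all genes. Both libraries were above their groups in 14 genes and below in 16, and in 0 genes did they lie on opposite sides. The clearest case was EIF5B, the GTPase of subunit joining. Its CPM was 175, 137, 145 and 165 in H2A cells with DMSO, 169, 174, 208 and 372 in H2A(E92K) cells, 823, 156, 162 and 175 with JQ1, and 104, 104, 103 and 104 with pinometostat. JQ1 replicate 1 was far above every other library, and the pinometostat libraries were the lowest.

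EIF3L, an eIF3 subunit, went the other way. Its CPM was 87.4 in JQ1 replicate 1 against 369, 355 and 360 in the others, and 121 in H2A(E92K) replicate 4 against 292, 300 and 255. EIF4E, the cap-binding protein, had 37.9 CPM in JQ1 replicate 1 against 91.7, 90.6 and 102, and 48.7 in H2A(E92K) replicate 4 against 124, 115 and 83.4. Both genes were thus lowest in the pair of libraries with the highest mitochondrial share. The genes in which JQ1 replicate 1 lay above its group had a median exonic length of 3985.5 bases, against 5548.5 bases for those in which it lay below. The part of RNA quality in these values was not tested, and the genes the results turn on are also given below for the 14 libraries without that pair, a fit added after the data were seen. The pair is in neither the pinometostat group nor its DMSO controls, so in that contrast both fits compare the same libraries. Only the filter, the scaling and the estimated spread differ there.

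**Figure D2:**
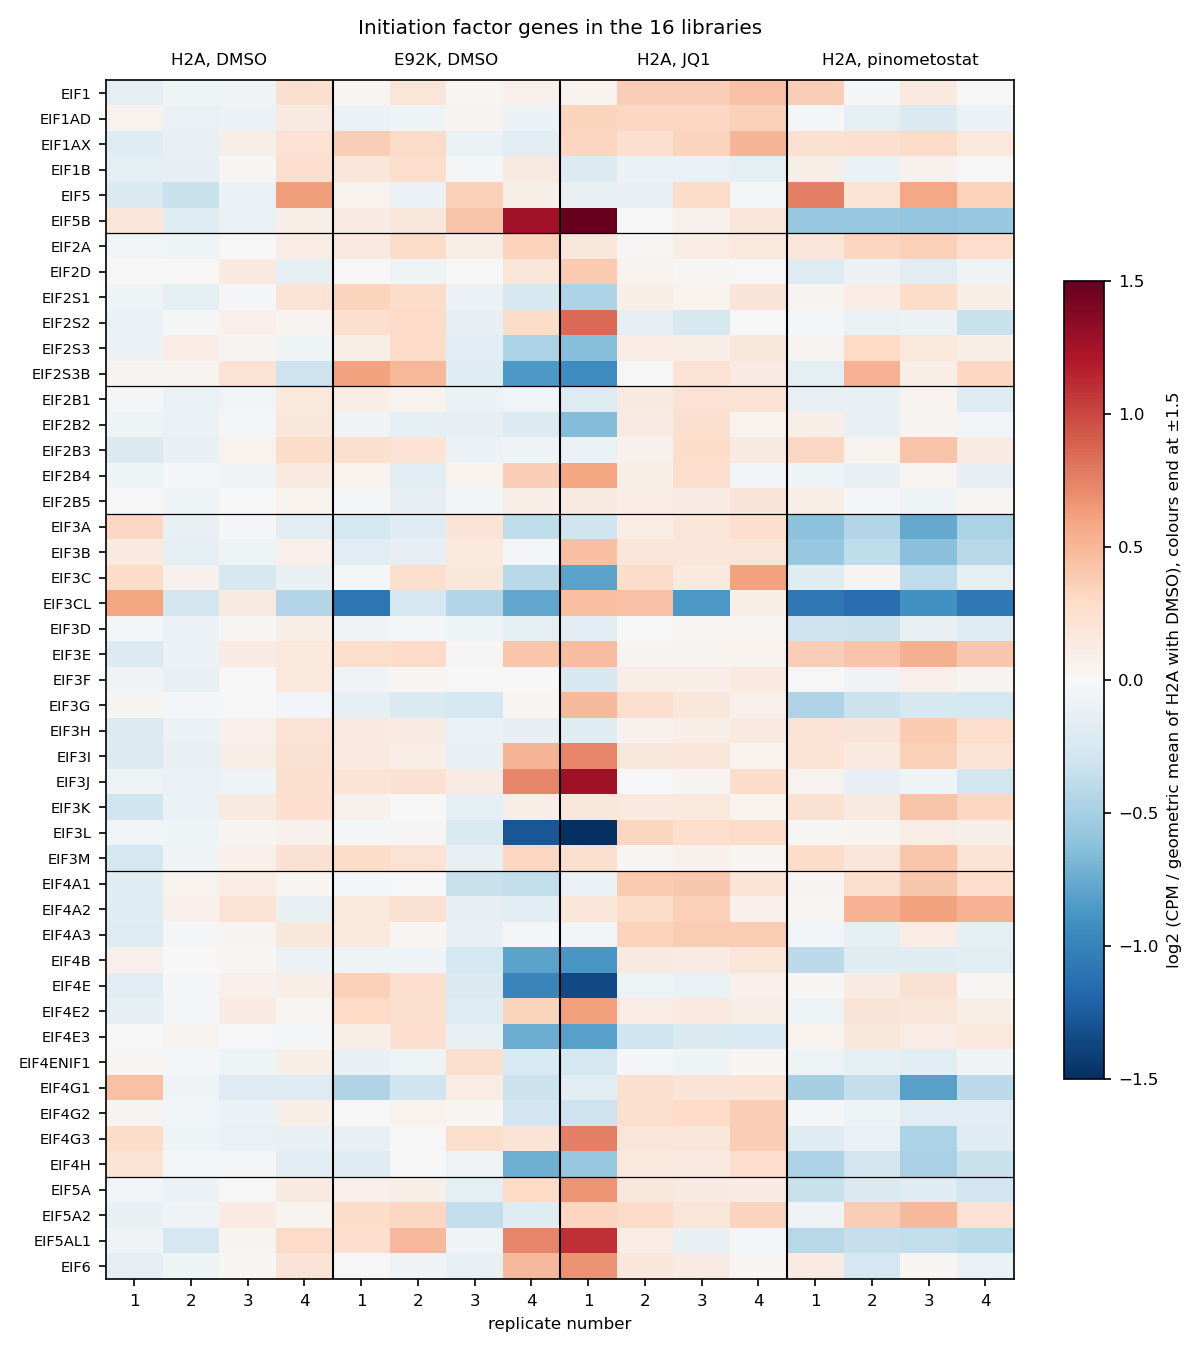
Heat map of the 47 tested genes (rows, by role) in the 16 libraries (columns, by group and replicate number). Colour is the log2 ratio of CPM to the geometric mean of the H2A libraries with DMSO, and colours end at ±1.5. JQ1 replicate 1 and H2A(E92K) replicate 4 show the strongest colours in EIF5B, EIF3J, EIF3L and EIF4E, and the pinometostat libraries are lower in EIF3A, EIF3B, EIF3CL, EIF4G1 and EIF5B.

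With pinometostat, 2 core subunits of eIF3 and the scaffold of eIF4F fell, and 1 other eIF3 subunit rose. EIF3A, EIF3B, EIF3CL and EIF4G1 were lower and EIF3E was higher at 24 h. That is 5 of 47 genes (10.6%), against a background of 8.20% of all tested genes (3.62% higher and 4.58% lower), so the share of changed genes was near that of all genes. The median change of the 47 was -0.01, against 0.03 over all tested genes. In bulk RNA, fewer cells with a transcript and less of it per cell cannot be told apart. The part of the mitochondrial share, which did not overlap between these groups, was not tested. No gene of eIF2B, of initiator tRNA delivery, of start codon selection or of the eIF5A group passed.

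EIF3A (chr10:119033670-119080823, minus strand, GRCh38) encodes the largest eIF3 subunit, on which the complex is built. Its CPM was 490, 366, 387 and 350 in H2A cells with DMSO and 257, 290, 232 and 284 with pinometostat. The groups did not overlap. The log2 fold change was -0.58 ± 0.15 (SE; edgeR adjusted p = 0.0253), and without the pair of libraries it was -0.59 ± 0.11 (adjusted p = 0.000955). The call was lost in 6 of 16 other settings, among them the fits without DMSO replicate 1 (adjusted p = 0.0950), DMSO replicate 3 (0.0540), pinometostat replicate 1 (0.0763) or pinometostat replicate 3 (0.0790).

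EIF3B (chr7:2354086-2380745, plus strand, GRCh38) encodes the subunit that binds EIF3A, EIF3G and EIF3I. It was at 308, 252, 263 and 292 CPM with DMSO and at 188, 214, 180 and 209 CPM with pinometostat. Again every treated library lay below every control. The log2 fold change was -0.50 ± 0.11 (edgeR adjusted p = 0.0134), and -0.51 ± 0.09 without the pair of libraries (adjusted p = 0.000564). Of 16 other settings, 1 lost the call, the fit without DMSO replicate 1, with a log2 fold change of -0.46 and an adjusted p of 0.0525.

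EIF3CL had the largest fall, -1.10 ± 0.32 on the log2 scale (edgeR adjusted p = 0.0405), but on few reads. Its CPM was 1.84, 1.01, 1.34 and 0.901 with DMSO and 0.582, 0.555, 0.65 and 0.581 with pinometostat, where every library held 13 counts. Its near-identical copy EIF3C, at 22.9, 19.8, 16 and 17.5 CPM with DMSO and 16.6, 19.4, 14.5 and 17 CPM with pinometostat, gave -0.17 ± 0.22 (adjusted p = 0.652). How reads were split between the copies is not known, so the EIF3CL value is uncertain, and 10 of 16 other settings lost its call.

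EIF4G1 (chr3:184314495-184335358, plus strand, GRCh38) encodes the scaffold that joins eIF4E, eIF4A and eIF3. Its CPM was 576, 404, 371 and 371 with DMSO and 300, 329, 241 and 322 with pinometostat. The groups did not overlap, and DMSO replicate 1 was well above the other controls. The log2 fold change was -0.53 ± 0.16 (edgeR adjusted p = 0.0486). It was -0.37 without DMSO replicate 1 (adjusted p = 0.185), and 10 of 16 other settings lost the call, each fit without any 1 pinometostat library included (adjusted p = 0.0713 to 0.144). Without the pair of libraries it was -0.54 ± 0.14 (adjusted p = 0.00594).

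EIF3E encodes an eIF3 subunit at the edge of the complex, also known as INT6. It was at 549, 596, 687 and 705 CPM with DMSO and at 817, 852, 911 and 832 CPM with pinometostat. All treated libraries lay above all controls, a rise of 0.43 ± 0.12 (edgeR adjusted p = 0.0405). The call was lost in 11 of 16 other settings, including each fit without any 1 pinometostat library (adjusted p = 0.0735 to 0.107), and without the pair of libraries it was 0.42 ± 0.09 (adjusted p = 0.00156). So within eIF3, 3 genes, the uncertain EIF3CL among them, were called lower and 1 higher of the 14 tested (28.6%). Over all tested genes 8.20% were called, 3.62% higher and 4.58% lower, and the difference between these shares was not tested.

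Without DMSO replicate 1, 0 of the 47 genes passed in edgeR, against 283 of all genes; the members' fold changes for the 5 genes were in the direction given above. Without the pair of libraries 15 of 47 genes passed with pinometostat, 4 higher and 11 lower, or 31.9%, against 27.4% of all genes (12.9% higher and 14.5% lower). Both fits compare the same pinometostat and DMSO libraries, so near-equal fold changes were fixed in advance and are no check on these calls. For EIF3A, EIF3B, EIF3E and EIF4G1 the fold changes given above moved by 0.01. The standard errors were smaller in the second fit, where the common dispersion was 0.0116 against 0.0307. For EIF5B the change was -0.58 ± 0.41 with all libraries (adjusted p = 0.400) and -0.59 ± 0.09 without the pair (adjusted p = 0.000175). Besides EIF3A, EIF3B, EIF3CL, EIF4G1 and EIF5B, the genes that fell in that fit were EIF3D, EIF3G, EIF4B, EIF4H, EIF5A and EIF5AL1, by 0.24 to 0.40. EIF2A, EIF3E, EIF3H and the helicase EIF4A2 rose in it, by 0.25 to 0.42.

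EIF5A, the most abundant of these mRNAs, passed in the smaller fit alone of these 2. It was at 1350, 1310, 1380 and 1530 CPM with DMSO and at 1100, 1200, 1230 and 1140 CPM with pinometostat. The groups did not overlap. The log2 fold change was -0.25 ± 0.13 with 16 libraries (edgeR adjusted p = 0.225) and -0.26 ± 0.08 with 14 (adjusted p = 0.0158). EIF4A2, at 266, 318, 353 and 281 CPM with DMSO and 309, 435, 460 and 436 with pinometostat, gave 0.43 ± 0.14 (adjusted p = 0.0587) and 0.42 ± 0.12 (adjusted p = 0.0104). Its groups overlapped through pinometostat replicate 1. By range alone, 3 genes lay wholly above and 11 wholly below the controls, a total to be read against 26.3% of all tested genes (12.7% above and 13.5% below).

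The other core genes did not pass with pinometostat in either fit. EIF1 gave 0.12 ± 0.12 (edgeR adjusted p = 0.553) and EIF1AX, which works beside it, 0.23 ± 0.13 (adjusted p = 0.267). For eIF2 the alpha subunit EIF2S1 gave 0.13 ± 0.15 and the gamma subunit EIF2S3 0.15 ± 0.17. EIF2B5, the catalytic subunit of eIF2B, gave 0.01 ± 0.08. EIF4A1 gave 0.24 ± 0.13 (adjusted p = 0.254). EIF4E gave 0.09 ± 0.26 and EIF6, which keeps the large subunit apart until it is needed, -0.05 ± 0.15. EIF5, the activator of GTP hydrolysis by eIF2, was at 169, 156, 185 and 302 CPM with DMSO and 331, 225, 292 and 249 with pinometostat; it gave 0.43 ± 0.18 (adjusted p = 0.142), and 0.69 with an adjusted p of 0.0127 without DMSO replicate 4, the highest control.

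**Figure D3:**
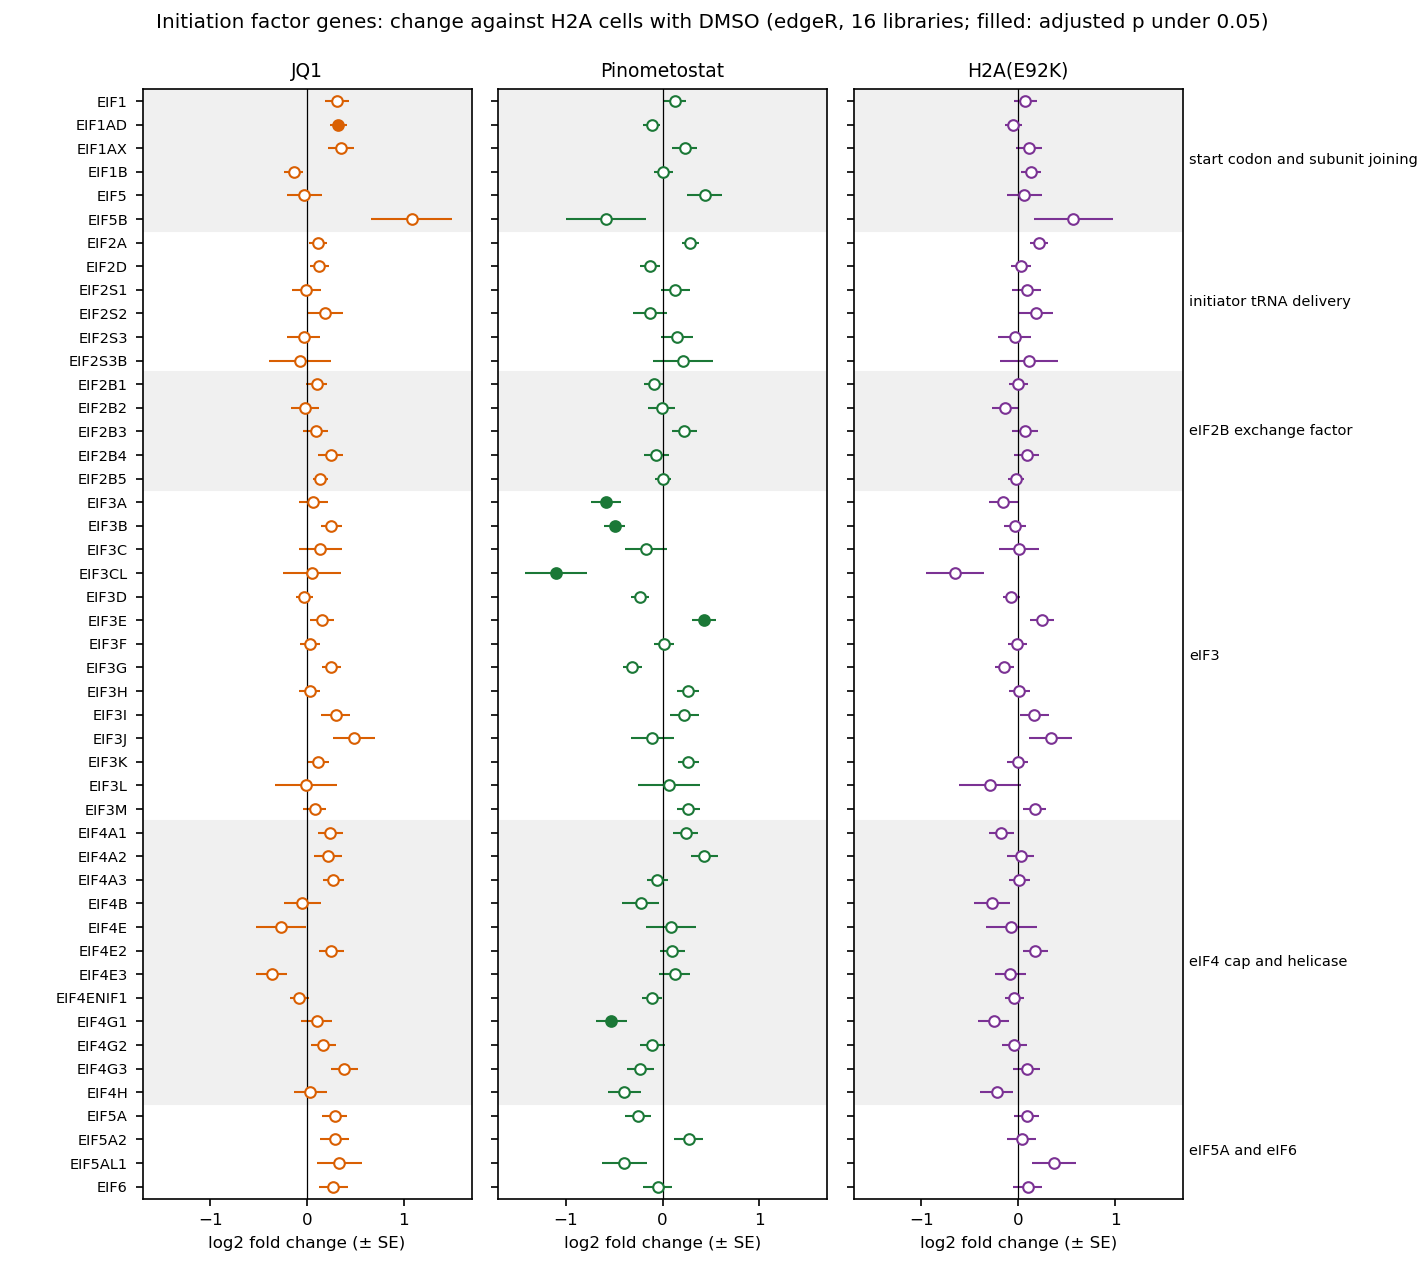
Log2 fold change (point) and its standard error (bar) of the 47 tested genes, by role, for JQ1, pinometostat and H2A(E92K), each against the same H2A libraries with DMSO. Filled points passed an edgeR adjusted p of 0.05: EIF1AD with JQ1, EIF3A, EIF3B, EIF3CL, EIF3E and EIF4G1 with pinometostat, and none in H2A(E92K) cells.

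With JQ1, EIF1AD was the 1 initiation factor gene of 47 (2.13%) that passed, against a background of 17.6% of all tested genes (7.16% higher and 10.4% lower). EIF1AD (chr11:65996545-66002176, minus strand, GRCh38) encodes a nuclear protein with an eIF1A-like domain. Its CPM was 30.9, 27.8, 28 and 32.6 with DMSO and 37.4, 36.9, 36.8 and 38.1 with JQ1. In CPM the groups did not overlap, and the JQ1 libraries, replicate 1 included, lay within a narrow range. In TPM they did overlap: JQ1 replicate 1 was at 18.9, the other JQ1 libraries at 33.1, 34 and 36.2. The DMSO libraries were at 31.8, 28.1, 26.4 and 30 TPM, all above JQ1 replicate 1. EIF1AD rose by 0.32 ± 0.09 on the log2 scale (edgeR adjusted p = 0.0148), and by 0.30 ± 0.09 without the pair of libraries (adjusted p = 0.0142). The call was lost in 5 of 16 other settings. In the fit without DMSO replicate 3 the edgeR adjusted p was 0.0573. The others were library size alone, no filter, the 8 libraries of both groups alone, and limma on log2(TPM + 1).

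The median change of the 47 genes with JQ1 was 0.13, against 0.04 over all tested genes, with 35 above 0 and 12 below. This direction depends on the scaling: with library size alone the medians were -0.06 and -0.14, and on log2(TPM + 1) they were -0.17 and -0.21, so the genes' median lay above that of all genes in each. On the log2(TPM + 1) scale EIF1AD gave 0.03 (limma adjusted p = 0.923). With all 16 libraries 1239 genes were called higher and 1805 lower, with library size alone 433 and 2605, and on log2(TPM + 1) 204 and 2229. The part of JQ1 replicate 1, with its mitochondrial share of 16.5%, in these shifts was not tested.

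Without the pair of libraries 8 of 47 genes passed with JQ1 (17.0%, against 24.1% of all genes), 7 of them higher (10.2% of all genes) and 1 lower (13.8% of all genes). EIF1 was at 578, 607, 612 and 747 CPM with DMSO and 655, 819, 820 and 856 with JQ1, so the groups overlapped through JQ1 replicate 1. Its log2 fold change was 0.31 ± 0.12 in the 16 libraries (edgeR adjusted p = 0.0827) and 0.37 ± 0.10 in the 14 (adjusted p = 0.00985). EIF1AX was at 271, 285, 326 and 357 CPM with DMSO and 384, 367, 389 and 439 with JQ1, with no overlap, and gave 0.35 ± 0.13 (adjusted p = 0.0629) and 0.35 ± 0.11 (adjusted p = 0.0218). EIF1AD, EIF3L, EIF4A1, EIF4A3, the helicase of the exon junction complex, and EIF4G2, a relative of EIF4G1 that lacks the eIF4E site, were also higher in that fit, by 0.27 to 0.34. EIF4E3, a relative of eIF4E, was lower by 0.26; for EIF4A1 and EIF3L the shared exons named above apply.

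EIF5B gave the largest fold change with JQ1, 1.08 ± 0.42 (edgeR adjusted p = 0.0829), and it rested on replicate 1: without the pair of libraries it was 0.06 ± 0.10 (adjusted p = 0.689). EIF5A likewise had 2200 CPM in JQ1 replicate 1 against 1560, 1530 and 1510 in the others, and gave 0.29 ± 0.13 (adjusted p = 0.137) and then 0.12 ± 0.08 (adjusted p = 0.331). EIF3E had 872 CPM there against 647, 650 and 654, and gave 0.15 ± 0.12 and then 0.02 ± 0.09. By range alone, 6 genes lay wholly above the controls with JQ1 and 1 wholly below, against 20.5% of all tested genes (8.26% above and 12.2% below). The remaining core genes, EIF2S1, EIF2S3, EIF2B5, EIF3A, EIF3B, EIF4A2, EIF4E, EIF4G1, EIF5 and EIF6, did not pass with JQ1, with changes of -0.27 ± 0.26 (EIF4E) to 0.27 ± 0.15 (EIF6).

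**Figure D4:**
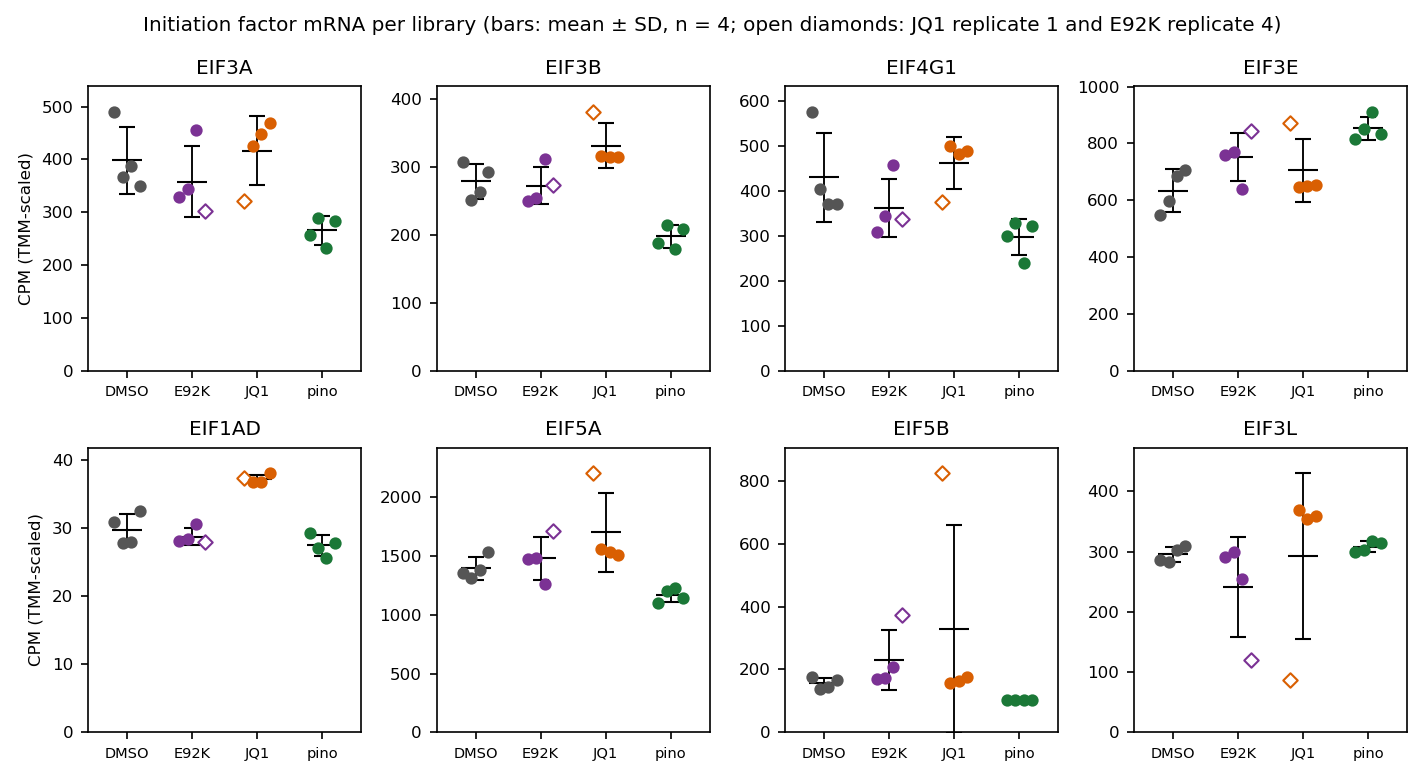
CPM by library of 8 initiation factor genes in H2A cells with DMSO (DMSO), H2A(E92K) cells with DMSO (E92K), and H2A cells with JQ1 or pinometostat (pino). Points are libraries, open diamonds are JQ1 replicate 1 and H2A(E92K) replicate 4, and bars are the mean and SD of 4 libraries, ending at 0 where the SD is larger than the mean. EIF3A, EIF3B and EIF4G1 are lower and EIF3E higher with pinometostat in every library, and 1 library carries the JQ1 mean of EIF5B.

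The treatments were compared with each other directly, within the same fit of all 16 libraries, and EIF1AD, EIF3A, EIF3B, EIF3E, EIF4G1 and EIF5A are given here. The DMSO libraries enter the filter, the scaling and the estimated spread, but not the difference itself. Compound and time of exposure cannot be told apart in this difference. EIF3B was at 381, 316, 314 and 315 CPM with JQ1, which put it 0.75 ± 0.11 above pinometostat on the log2 scale (edgeR adjusted p = 5.92e-05). EIF3A was higher with JQ1 by 0.65 ± 0.15 (adjusted p = 0.00275), EIF4G1 by 0.63 ± 0.16 (adjusted p = 0.00538) and EIF1AD by 0.44 ± 0.09 (adjusted p = 0.000870). EIF5A was higher by 0.54 ± 0.13 (adjusted p = 0.00351). The JQ1 and pinometostat libraries did not overlap in any of these genes, most of which were named for a call against DMSO with the same treated libraries. Of the 47 genes, 13 passed in this contrast (27.7%), against 34.2% of all tested genes. By range, 12 lay wholly above and 3 wholly below, against 33.2% of all genes (15.3% above and 17.9% below). For EIF3E the difference, -0.27 ± 0.12, did not pass with 16 libraries (adjusted p = 0.0955) and passed without the pair, at -0.40 ± 0.09 (adjusted p = 0.00140). The other 5 genes passed in that fit too, at 0.66 ± 0.10 (EIF3B), 0.74 ± 0.12 (EIF3A), 0.71 ± 0.15 (EIF4G1), 0.43 ± 0.09 (EIF1AD) and 0.38 ± 0.08 (EIF5A), with edgeR adjusted p from 1.20e-05 to 0.000804. In all, 20 of the 47 genes passed in it (42.6%), against 45.0% of all genes.

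In H2A(E92K) cells 0 of 47 genes passed in edgeR, as did 0.00% of all tested genes, and DESeq2 called 0 of the initiation factor genes and 4 genes in all. At an unadjusted p under 0.05 there were 2 of 47 (4.26%), EIF2A and EIF3CL, against 1296 genes (7.49%). Changes ran from -0.65 ± 0.30 (EIF3CL) to 0.57 ± 0.41 (EIF5B), with a median of 0.01 against 0.00 over all genes. No gene of the 47 lay wholly above or below its controls, against 5.17% of all genes (1.99% above and 3.18% below). Without the pair of libraries 0 of 47 passed as well, against 3 of all genes (0.0172%, with 0.00573% higher and 0.0115% lower). For the core genes the standard errors were 0.08 to 0.26; EIF3A gave -0.16 ± 0.15, EIF4G1 -0.25 ± 0.16 and EIF2B5 -0.02 ± 0.08. EIF3E was at 759, 769, 640 and 843 CPM, overlapped its controls and gave 0.25 ± 0.12 (edgeR adjusted p = 0.656). Set directly against pinometostat, 0 of 47 genes passed (against 0.352% of all genes), and 7 without the pair of libraries (14.9%, against 8.98%). Set directly against JQ1, 3 of 47 passed (6.38%, against 22.9% of all genes), and 11 without the pair (23.4%, against 31.6%).

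The genes with a TOP-like start did not move as a block. With pinometostat the 10 had a median change of 0.18, from -0.23 to 0.43, with 7 above 0, 3 below and 0 called, against -0.05 for the 30 tested genes with a window and no such start. EIF3A, EIF3CL and EIF3E, which were called with pinometostat, had no window and are in neither set. With JQ1 the medians were 0.06 and 0.24, and 0.08 and 0.12 without the pair of libraries. In H2A(E92K) cells they were 0.01 and 0.05, and then 0.04 and 0.05. In the 14 libraries the medians with pinometostat were 0.17 and -0.06, and 2 of the 10 were higher with pinometostat (EIF2A and EIF4A2) and 2 lower (EIF3D and EIF4B), so genes with the letters shown above went both ways. For the E-box, the medians with JQ1 were 0.06 for the 10 genes with CACGTG and 0.20 for the 30 without, and this order turned without the pair of libraries, at 0.13 and 0.11.

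For 6 pairs, paralogs were compared as log2 ratios of TPM within each library, which do not depend on the scaling between libraries. EIF1B, a close relative of EIF1, stood below EIF1 by a log2 ratio of -2.32, -2.38, -2.25 and -2.31 in the DMSO libraries of H2A cells and -2.57, -2.77, -2.79 and -2.89 with JQ1. All JQ1 libraries were lower, and the group means, -2.32 ± 0.05 and -2.76 ± 0.14, differed by -0.44; this was not tested. EIF5A2, the second eIF5A gene, stood at -8.28, -8.17, -8.06 and -8.31 relative to EIF5A with DMSO and at -7.92, -7.61, -7.55 and -7.70 with pinometostat. Its means were -8.21 ± 0.11 and -7.70 ± 0.16, again without overlap and without a test. The helicase pair EIF4A2 over EIF4A1 stood at 2.84 ± 0.10, 2.83 ± 0.19, 3.03 ± 0.13 and 3.05 ± 0.02 with DMSO, JQ1, pinometostat and in H2A(E92K) cells, subject to the shared exons of EIF4A1; the H2A(E92K) libraries lay above the controls. EIF4G3 over EIF4G1 stood at -2.24 ± 0.12 with DMSO, -1.98 ± 0.46 with JQ1, -1.95 ± 0.06 with pinometostat and -1.91 ± 0.16 in H2A(E92K) cells. The pinometostat and H2A(E92K) libraries lay above the controls in this ratio, untested as well. For EIF4G2 over EIF4G1 and EIF4E2 over EIF4E every group overlapped its controls. How often ratios of other gene pairs lie wholly above or below their controls was not computed. The separations given here therefore have no background share beside them.

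Around these factors stand the genes that control them, 40 of which were listed: the EIF4EBP genes, the eIF2 kinases and phosphatase subunits, ATF4, poly(A)-binding proteins, the mTORC1 branch, the eIF4E kinases and other cofactors. All 40 were tested. With JQ1 6 of the 40 were higher, namely PPP1R15B, MKNK2, PABPC4, ATF4, TSC2 and EIF4EBP2, and 0 were lower. Among all tested genes 17.6% were called, 7.16% higher and 10.4% lower, and the difference from these shares was not tested. With library size alone 0 of the 40 were higher and 2 lower. On log2(TPM + 1) 0 of the 40 passed, so the direction of the regulators also depends on the scaling. In the 14 libraries 13 were higher and 0 lower (32.5%, against 24.1% of all genes, with 10.2% higher). PPP1R15B, which directs a phosphatase to eIF2, was at 82.4, 86.8, 72.9 and 73.7 CPM with DMSO and 83, 126, 117 and 121 with JQ1, a rise of 0.50 ± 0.11 (edgeR adjusted p = 0.00485), and of 0.60 ± 0.08 without the pair of libraries (adjusted p = 8.48e-06). Its replicate 1 stood among the controls and the other JQ1 libraries above them. The PPP1R15B call was lost in 3 of 16 other settings: library size alone, the 8 libraries of both groups alone, and limma on log2(TPM + 1).

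ATF4, the transcription factor made when eIF2 is phosphorylated, was at 1090, 1090, 1060 and 1080 CPM with DMSO and 1670, 1250, 1290 and 1310 with JQ1. It rose by 0.35 ± 0.11 (edgeR adjusted p = 0.0287). Without JQ1 replicate 1 the change was 0.22 (adjusted p = 0.0933), and without the pair of libraries 0.23 ± 0.08 (adjusted p = 0.0463). The ATF4 call was lost in 9 of 16 other settings, among them the fits without DMSO replicate 2, 3 or 4. MKNK2, a kinase of eIF4E, rose by 0.51 ± 0.15 (adjusted p = 0.0220), and was called neither without DMSO replicate 3 or 4 nor without JQ1 replicate 2; in the 14 libraries it gave 0.56 ± 0.13 (adjusted p = 0.00217). PABPC4, a poly(A)-binding protein, rose by 0.41 ± 0.12 (edgeR adjusted p = 0.0247). It rose by 0.27 without JQ1 replicate 1 (adjusted p = 0.0891) and by 0.28 ± 0.10 in the 14 libraries (adjusted p = 0.0414). Of 16 other settings, 6 lost the call of MKNK2 and 9 that of PABPC4. EIF4EBP1 gave 0.18 ± 0.14 and EIF2AK3, the endoplasmic reticulum kinase of eIF2, -0.04 ± 0.22, then 0.02 ± 0.10 and 0.15 ± 0.11 in the 14 libraries, and neither passed in either fit.

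With pinometostat 3 of the 40 were lower and 0 higher (7.50%, against 8.20% of all genes): PABPC1, RPTOR and MLST8. PABPC1, the main poly(A)-binding protein, was at 1060, 967, 992 and 929 CPM with DMSO and 718, 785, 772 and 817 with pinometostat. The groups did not overlap, and it fell by 0.35 on the log2 scale with an SE of 0.10 (edgeR adjusted p = 0.0346). The PABPC1 call was lost in 11 of 16 other settings, among them each fit without any 1 pinometostat library. RPTOR, which gives mTORC1 its substrates, had a log2 fold change of -0.52 ± 0.14 (adjusted p = 0.0315), and -0.36 without DMSO replicate 1 (adjusted p = 0.118). MLST8, a subunit of both mTOR complexes, had -0.33 ± 0.09 (edgeR adjusted p = 0.0365). Of 16 other settings, 8 lost the call of RPTOR and 10 that of MLST8. Of the 40 genes, 0 passed without DMSO replicate 1, and 11 without the pair of libraries (27.5%, against 27.4% of all genes). EIF4EBP1, EIF2AK3 and ATF4 gave -0.31 ± 0.14, 0.21 ± 0.21 and -0.14 ± 0.11 and did not pass in the 16 libraries. In the 14 libraries EIF4EBP1 fell, with -0.32 ± 0.09 (adjusted p = 0.0150), while EIF2AK3 gave 0.20 ± 0.11 and ATF4 -0.15 ± 0.08 and did not pass. PABPC1, RPTOR and MLST8 passed there too, at -0.36 ± 0.07, -0.53 ± 0.13 and -0.34 ± 0.08 (edgeR adjusted p = 0.00156, 0.00496 and 0.00410). That fit compares the same pinometostat and DMSO libraries as the fit of 16. In H2A(E92K) cells 0 of the 40 passed, and EIF4EBP1, EIF2AK3 and ATF4 gave 0.06 ± 0.14, -0.12 ± 0.21 and -0.04 ± 0.11.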

How the data were processed

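For each library the authors deposited counts, as whole numbers per gene, and TPM. The deposited TPM equal counts divided by exonic length, scaled to a fixed sum, within 0.1% in 100.0% of values, and the series counts equal the library files in 920000 of 920000 values. The sources used here do not name aligner, counter, strand setting or genome build; 46 of the 49 genes have the coordinates of GENCODE release 29 (GRCh38). Where the labels give pinometostat in 2 units, the sample field was used.

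Counts were filtered with filterByExpr (minimum count 10, minimum total 15), scaled by TMM and fitted with edgeR 4.0.16 (glmQLFit and glmQLFTest, R 4.3.3), over all 16 libraries with 1 coefficient per group (12 residual degrees of freedom, common dispersion 0.0307); all tests are two-sided. The 14-library fit had 17446 genes, 10 residual degrees of freedom and a dispersion of 0.0116. A standard error is the fold change divided by the square root of F. DESeq2 1.42.0 and limma 3.58.1 on log2(TPM + 1) served as alternatives to the test. The labels do not say that replicates came from separate cultures, so p-values measure the spread between these samples; the lowest chi-square of a replicate pair was 3.539 per degree of freedom, so none agreed within sampling noise. Members, roles and regulator list were chosen with earlier results of these data known. Genes named with full statistics were those with an adjusted p under 0.05, a set of 14 core genes, and, of the regulators, up to 4 with the smallest p besides EIF4EBP1, EIF2AK3 and ATF4; EIF5B, EIF3L, EIF3C and the further genes of the 14-library fit were chosen after their values were seen. Figures were drawn with matplotlib 3.10.9. Some of the marker genes are not reported here.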

Additional observations from a re-analysis of the deposited data

Results flagged for a closer look

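The levels of the called and core genes were checked for a library far from the other 3 of its group, with Dixon's criterion for 4 libraries, which chance meets in about 1 of 20 groups; 9 of 68 checks met it. JQ1 replicate 1 accounted for 5: EIF2S3 at 385 CPM (the others 645 to 678), EIF3B at 381 (314 to 316), EIF3E at 872 (647 to 654), EIF4G1 at 376 (483 to 500) and EIF5A at 2200 (1510 to 1560). H2A(E92K) replicate 4 had EIF6 at 154 CPM (102 to 110), and H2A(E92K) replicate 3 had EIF1AD at 30.7 (28 to 28.4). DMSO replicate 1 had EIF4G1 at 576 CPM (371 to 404), and pinometostat replicate 1 had EIF4A2 at 309 (435 to 460).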

How the results depend on the processing

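Counts of called genes moved with the processing, and the cause was not tested. For JQ1 (1 initiation factor gene, 6 regulators, 3044 of all genes), library size alone gave 0, 2 and 3038, no filter 1 (not EIF1AD), 3 and 3069, the 8 libraries of both groups alone 0, 0 and 1872, limma on log2(TPM + 1) 0, 0 and 2433, DESeq2 4, 10 and 3675, and the 14-library fit 8, 13 and 4196. Leaving out 1 library gave 0 to 3, 1 to 8 and 2216 to 3207. For pinometostat the counts were 5, 3 and 1419. Library size alone gave 1 regulator and 1213 of all genes. EIF3A, EIF3B, EIF3CL and EIF3E kept their calls there, EIF4G1 lost its call and EIF5A gained one. DESeq2 size factors gave 5 regulators and 1553 of all genes, and of the called initiation factor genes EIF3E alone lost its call. No filter gave 3 initiation factor genes and 1058 of all genes. The 8 libraries alone gave 14, 11 and 4610, and limma on log2(TPM + 1) 2, 0 and 538. DESeq2 gave 9, 7 and 2348, and the 14-library fit 15, 11 and 4782. Leaving out 1 library gave 0 to 7, 0 to 5 and 283 to 1546. For H2A(E92K), 0 initiation factor genes and 0 regulators passed in each of the 16 alternatives; all genes came to 4 with no filter, 4 with DESeq2, 3 in the 14-library fit and 0 to 1 with 1 library left out.

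With the replicate number as a block, EIF1AD kept its call with JQ1, where 2 regulators and 2363 of all genes passed. With pinometostat 1 initiation factor gene, 0 regulators and 534 of all genes passed. The numbers do not pair the samples: correlations of same-numbered libraries ran from -0.557 to 0.238, over 0.1 in 2 of 24 pairs, and 2 of 16 libraries correlated best with their own number.

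Over all alternatives, 0 of the called values of named genes changed sign; among uncalled values 25 did with JQ1, 17 with pinometostat and 32 in H2A(E92K) cells. Of 336 such values with JQ1, 296 stayed on their side of the threshold, 32 lost a call and 8 gained one; of 352 with pinometostat, 274, 67 and 11. In H2A(E92K) cells all 272 stayed uncalled. Depth limits EIF3CL, at 13 to 49 counts per library, EIF2S3B at 7 to 36 and EIF4EBP3 at 14 to 50.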
